A study of Arabidopsis thaliana with 20 samples.

Results

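The genes described here are the 50 *Arabidopsis thaliana* loci that carry the transcriptional response to auxin from receptor to promoter: 15 *AUXIN RESPONSE FACTOR* genes (*ARF1* to *ARF11* and *ARF16* to *ARF19*), 29 *Aux/IAA* genes and the 6 *TIR1/AFB* auxin receptor genes. They were chosen by name and locus, not by their level, out of 27562 genes in the tables, and all 50 were listed there. Their transcripts were quantified by RNA sequencing in 20 libraries of 4 groups with 5 biological replicates each: shoot apical meristems (SAMs) and inflorescence meristems (IMs) of the accession Col-0 and of *plt3 plt7*, a CRISPR double mutant in Col-0 for the PLETHORA transcription factor genes *PLT3* and *PLT7*. Each replicate pooled c. 50 hand-dissected apices. SAMs came from seedlings on agar plates at 7 days post germination (dpg) and kept small leaf primordia, whereas IMs came from plants on soil at 31 to 33 dpg and kept young flower primordia, so that tissue, age, substrate, light and dissection cannot be told apart. SAMs were collected in 4 harvest groups and IMs in 3.

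Auxin signals by removing repressors. At low auxin, Aux/IAA proteins bind ARF transcription factors on the promoters of auxin response genes and recruit TOPLESS (TPL) corepressors. Auxin acts as a glue between a TIR1/AFB F-box protein and a short degron in the Aux/IAA, which is then ubiquitinated by the SCF complex and degraded, so that the ARF is freed. In shoot apices, local auxin maxima mark where the next leaf or flower starts, and ARF5 (MONOPTEROS) is the activating ARF known to be needed for flower initiation.

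The degron was looked for first, since it is the part of an Aux/IAA protein that the receptors bind. Only its sequence was searched for, and capture by the receptors was not tested. Its core is a run of codons for glycine, tryptophan, proline, proline and then valine, isoleucine or leucine. It was found in the annotated coding sequences of 23 of the 29 *Aux/IAA* genes and not in those of *IAA20*, *IAA30*, *IAA31*, *IAA32*, *IAA33* and *IAA34*. The coding strand around the core, with the 15 bases of the core in capitals, is shown for the 7 genes that fell more than 2-fold in IMs in both genotypes and for *IAA8*, the *Aux/IAA* gene with the highest transcript level (RefSeq, TAIR10.1).
IAA1: caaatcgttGGATGGCCTCCAGTGaga
IAA2: caaatcgttGGTTGGCCACCAGTGaga
IAA3: cagattgttGGATGGCCACCAGTTaga
IAA4: cagattgttGGATGGCCACCAGTTaga
IAA7: caagtggtgGGATGGCCACCTGTGagg
IAA14: caagtggtgGGTTGGCCACCGGTGagg
IAA17: caagttgtgGGATGGCCACCGGTGaga
IAA8: caggttgttGGTTGGCCTCCAATCaga
*IAA3* and *IAA4* are identical over all 27 bases shown.

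Certain microRNA families are known to cut transcripts of members of the set, so that the level of those members also depends on a regulator outside it. The mature sequences, with the seed (bases 2 to 8) in capitals, are those of the reference annotation, with T in place of U.
miR160: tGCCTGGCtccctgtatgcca
miR167: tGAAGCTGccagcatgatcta
miR393: tCCAAAGGgatcgcattgatcc
Sites with at most 4 mismatches were found in the coding sequences of the known targets. The site strand is printed 5′ to 3′, and capitals mark bases complementary to the microRNA, with G to U pairs counted as mismatches.
ARF10 (miR160): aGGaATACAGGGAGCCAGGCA
ARF16 (miR160): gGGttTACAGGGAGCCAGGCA
ARF17 (miR160): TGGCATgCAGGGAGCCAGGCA
ARF6 (miR167): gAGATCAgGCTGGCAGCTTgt
ARF8 (miR167): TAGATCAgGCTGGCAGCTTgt
TIR1 (miR393): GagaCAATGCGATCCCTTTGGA
AFB1 (miR393): GagaCcATGCGATCCCTTTGGA
AFB2 (miR393): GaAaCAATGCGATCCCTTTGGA
AFB3 (miR393): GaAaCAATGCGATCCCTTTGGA
*ARF17* had the best match to miR160, with 20 of 21 bases complementary, and *AFB2* and *AFB3* the best to miR393, with 20 of 22. *AFB4* and *AFB5* had no such site. MicroRNA levels were not measured in these libraries.

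Auxin response factors bind the hexamers TGTCTC and TGTCGG. Searched on both strands in the 300 bases before each annotated gene start, at least 1 of them was present at 14 of 29 *Aux/IAA* genes (48.3%) and 19 of all 50 members, against 17.3% of 27443 protein-coding genes. The promoter of *IAA1* (chr4:8360696-8360995, plus strand, TAIR10.1), which holds 1 of each on the opposite strand, is given as an example with both motifs in capitals.
IAA1: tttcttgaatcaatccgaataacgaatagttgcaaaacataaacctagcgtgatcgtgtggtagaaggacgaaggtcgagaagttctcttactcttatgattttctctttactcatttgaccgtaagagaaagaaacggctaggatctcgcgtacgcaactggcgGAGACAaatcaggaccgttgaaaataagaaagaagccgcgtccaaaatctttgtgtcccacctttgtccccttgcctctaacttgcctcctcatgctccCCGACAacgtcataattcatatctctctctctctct
A hexamer of this kind was present at *IAA1* and *IAA3* among the 7 genes that fell more than 2-fold in IMs and at *IAA32* among the 6 that rose. The other 10 of these 13 genes, *IAA2*, *IAA7* and *IAA14* among them, do not hold these letters in this window.

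Libraries held 24.8 to 114.9 megacounts of estimated counts, with the widest range in the *plt3 plt7* IM group. The summed level of 5 meristem markers was 42 to 68.6 TPM in SAM and 90 to 115 TPM in IM libraries, but its members differed: *STM*, *KNAT1* and *WUS* were called higher in IMs in both genotypes and *CLV1* lower in both (-0.96 and -0.85), while *CLV3* was lower in *plt3 plt7* (-2.38) and could not be tested in Col-0. *WUS*, which defines the organising centre, was at 0 to 0.296 TPM in SAM libraries. The summed level of 6 floral identity genes was 2.11 to 5.87 TPM in SAM and 774 to 855 TPM in IM libraries, that of 5 photosynthesis genes 17101 to 27586 TPM in SAM and 3507 to 4533 TPM in IM, and that of 5 vascular genes 65.3 to 106 TPM in SAM and 17.9 to 29.7 TPM in IM. All 6 floral genes were called higher and all 5 photosynthetic and all 5 vascular genes lower in IMs in both genotypes, and their part in the tissue differences below was not tested. The root markers *PLT1* and *PLT2* were under 1 TPM in all 20 libraries, but the root marker *WOX5* was detected, at 3.56 to 6.6 TPM in SAM and 0.933 to 1.94 TPM in IM libraries. Transcripts of the mutated genes were still present in *plt3 plt7*, *PLT3* at 12.7 ± 0.921 TPM in IMs (mean ± SD, *n* = 5) against 21.7 ± 2.71 TPM in Col-0 and *PLT7* at 13 ± 1.63 against 14.8 ± 1.57 TPM. In bulk samples, fewer cells that express a gene and less of its RNA in each cell cannot be told apart.

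The first comparison asked how the auxin response genes differ between the IM and the SAM. It was made separately in Col-0 and in *plt3 plt7*, which share no library. A gene was called when its DESeq2 adjusted *P* (Benjamini-Hochberg, over all genes tested) was under 0.1 and its change was above 25%. In Col-0, 46 members had enough counts to be tested, of which 16 (34.8%) were called higher and 15 (32.6%) lower in IMs, against 26.7% and 30.5% of all 19627 genes tested. In *plt3 plt7*, 19 of 45 (42.2%) were higher and 14 (31.1%) lower, against 26.4% and 31.3% of 19689 genes. The share of members called lower was thus close to that of all genes, and the share called higher was above it. The higher counts include *IAA31* and *IAA33* in both genotypes, and the lower count in Col-0 includes *IAA29*. Each of these could be tested only through the tissue in which it was high. The split depended on scaling: with libraries scaled by their total counts, 24 members were higher and 10 lower in Col-0, and 23 higher and 10 lower in *plt3 plt7*. Among the 45 members tested in both genotypes, 43 (95.6%) had the same sign, against 90.9% of 19448 genes tested in both. The 27 members called in both all had the same direction, as did 9870 of the 9872 genes called in both.

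**Figure D1:**
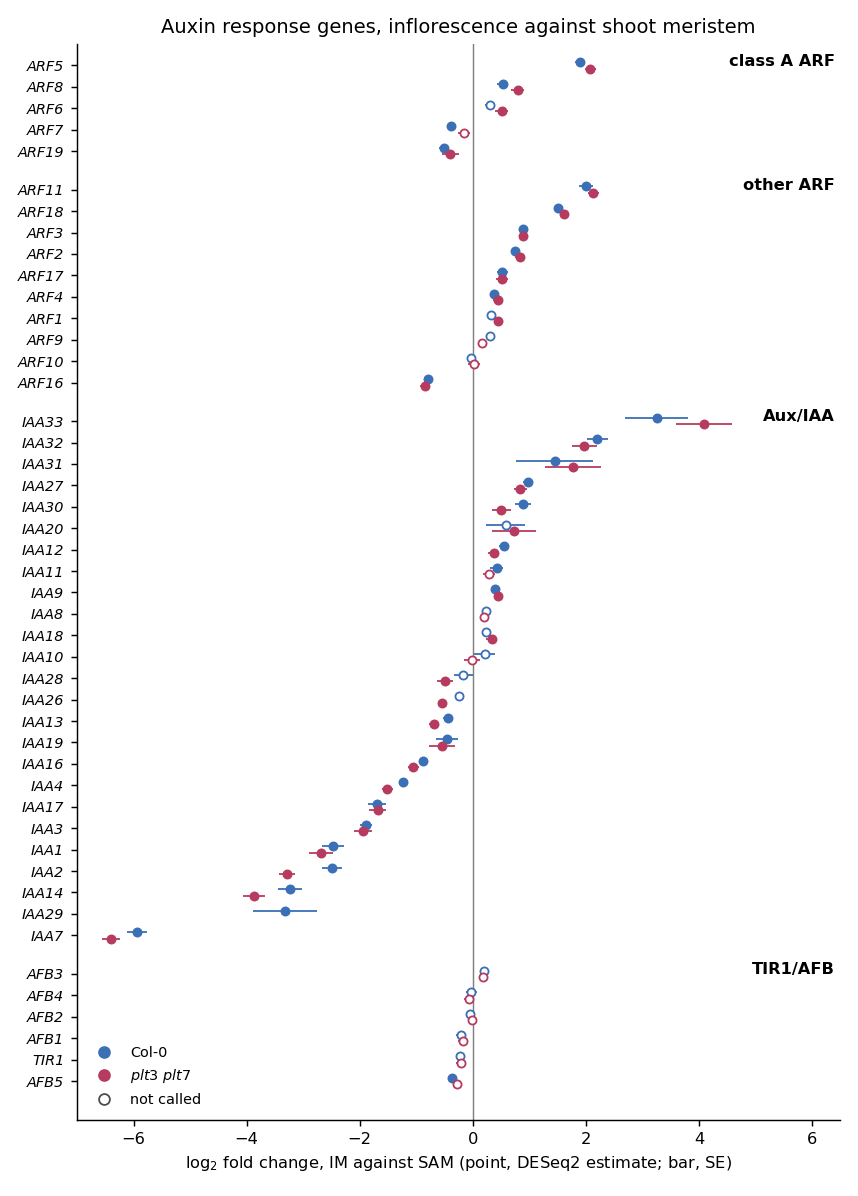
Log2 fold change of IM against SAM for each tested member in Col-0 (blue) and *plt3 plt7* (red), by class; bars are the standard error of the DESeq2 estimate and open points were not called. *ARF5* and *ARF11* lie near 2 in both genotypes, *IAA7* lies at -5.94 and -6.40, and the *TIR1/AFB* genes lie between -0.36 and 0.19, where the sign of *TIR1*, *AFB1*, *AFB2* and *AFB4* turns when libraries are scaled by their total counts.

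By class, more *ARF* genes were called higher than lower. Of the 15 *ARF* genes, 8 (53.3%) were higher and 3 (20%) lower in Col-0 IMs, with a median log2 fold change of 0.37. In *plt3 plt7* the counts were 10 (66.7%) and 2 (13.3%), and the median 0.51. Of the *Aux/IAA* genes, 8 of 25 were higher and 11 lower in Col-0, with a median of -0.17. In *plt3 plt7* these counts were 9 and 12 of 24, and the median -0.25. The *Aux/IAA* split turned with libraries scaled by total counts, to 12 higher and 9 lower in Col-0 and 11 higher and 9 lower in *plt3 plt7*, so no direction is given for that class, while the *ARF* counts became 11 higher and 1 lower in each genotype. The *TIR1/AFB* genes moved little, with 1 of 6 (16.7%) called, lower, in Col-0 and 0 in *plt3 plt7*. Scaled by total counts, 1 was called higher and 0 lower in each genotype. The median over all genes tested was 0.02 in both genotypes.

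Class A ARFs, which have a glutamine-rich middle region and activate transcription, differed among themselves. *ARF5* (AT1G19850) was at 17.4, 23.7, 22.1, 22.1 and 25.2 TPM (a level scaled to transcript length and to the total of each library) in the Col-0 SAM libraries and at 96.7, 102, 115, 97.4 and 120 TPM in the Col-0 IM libraries. In *plt3 plt7* it was at 19.1, 19, 18.3, 23.7 and 21.8 TPM in SAM and at 90.5, 107, 126, 112 and 119 TPM in IM. Every IM library was thus above every SAM library, and the log2 fold change was 1.89 ± 0.08 (estimate ± SE, adjusted *P* = 2.10e-136) in Col-0 and 2.08 ± 0.09 (8.02e-126) in *plt3 plt7*. *ARF5* made up 7.08% ± 0.431 (SD, *n* = 5) of the summed *ARF* level in Col-0 SAMs and 16.5% ± 0.407 in Col-0 IMs. The *ARF6* and *ARF8* pair, which promotes flower maturation, changed less: *ARF8* rose in both genotypes, by 0.53 and 0.79 on the log2 scale, while *ARF6*, the class A gene with the highest level, was at 0.31 in Col-0, not called, and rose by 0.51 in *plt3 plt7*. In Col-0 it was called, at 0.33, without replicate 2, 3 or 4 of SAM or 1 or 4 of IM. Both carry a miR167 site. *ARF7* and *ARF19*, which act together in lateral root formation, went the other way. *ARF19* fell in both genotypes, with log2 fold changes of -0.51 and -0.40, and *ARF7* fell in Col-0 only by call, with -0.38 against -0.16 (adjusted *P* = 0.162) in *plt3 plt7*. The interaction test did not separate the genotypes for *ARF7* (log2 difference 0.20, adjusted *P* = 0.691). When libraries were scaled by their total counts, neither *ARF7* nor *ARF19* was called in either genotype.

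The other ARFs of the set are mostly regarded as repressors. *ARF11* (AT2G46530) had the highest fitted fold change among *ARF* genes, close to that of *ARF5*. It went from 5.34, 4.37, 4.78, 4.68 and 4.58 TPM in Col-0 SAM to 23.1, 23.1, 27.8, 21.4 and 28.5 TPM in Col-0 IM libraries, and from 4.7, 4.1, 3.95, 4.44 and 4.21 to 23.7, 23, 29.2, 24.6 and 24.1 TPM in *plt3 plt7*. The log2 fold change was 2.00 ± 0.12 (adjusted *P* = 8.55e-61) and 2.13 ± 0.10 (2.26e-109), without overlap between tissues. *ARF18* (AT3G61830), which shares 18 of its 31-base words with *ARF11*, was at 11.6, 11.8, 14.1, 13.3 and 13.2 TPM in Col-0 SAM and at 45.2, 43.7, 49, 42.1 and 51.6 TPM in Col-0 IM. It was at 10.8, 11.3, 9.63, 12.9 and 11.6 TPM in *plt3 plt7* SAM and at 40.5, 41.2, 45.3, 44.5 and 48.7 TPM in *plt3 plt7* IM. Its log2 fold changes were 1.51 ± 0.07 (1.33e-95) and 1.61 ± 0.07 (5.06e-104), again with every IM library above every SAM library. *ARF2*, the most abundant *ARF*, rose from 54.5 ± 3.89 to 116 ± 12.5 TPM (mean ± SD, *n* = 5) in Col-0, with log2 fold changes of 0.74 in Col-0 and 0.83 in *plt3 plt7*. *ARF1*, the next most abundant, was just under the minimum change in Col-0 (0.32; called at 0.33 or 0.34 without replicate 3 of Col-0 SAM or 1 or 2 of Col-0 IM) and called in *plt3 plt7* (0.44). *ARF3* (ETTIN), which patterns the gynoecium and binds auxin itself, rose by 0.89 and 0.88, and *ARF4* by 0.37 and 0.44, a call lost in Col-0 without replicate 1 of Col-0 SAM (0.32). The 3 targets of miR160 did not move together: *ARF16* fell (-0.79 and -0.85), *ARF17* rose (0.52 and 0.52) and *ARF10* was at -0.03 and 0.02, not called in either genotype. *ARF9* was called in neither, but passed in Col-0 without replicate 3 of Col-0 IM (0.32). In Col-0, *ARF1*, *ARF6* and *ARF9* were all called higher with edgeR, TMM factors, a length offset or total-count scaling.

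In IMs of both genotypes, 7 *Aux/IAA* genes fell more than 2-fold, and all 7 carry the degron core, as do 20 of the 25 tested in Col-0. *IAA7* (AXR2, AT3G23050), a dominant mutant of which gives auxin-resistant dwarfs, had the deepest fall. It was at 66.9, 113, 78.7, 84.8 and 61.9 TPM in Col-0 SAM and at 1.49, 2.39, 1.36, 2.46 and 1.23 TPM in Col-0 IM libraries. In *plt3 plt7* it was at 76.5, 82.3, 99, 107 and 91.7 TPM in SAM and at 1.41, 1.54, 1.17, 2.36 and 0.703 TPM in IM. The lowest SAM library was thus more than 20 times the highest IM library, and the fitted fold was 61.2 in Col-0 (log2 -5.94 ± 0.18, adjusted *P* = 5.04e-238) and 84.7 in *plt3 plt7* (log2 -6.40 ± 0.16). *IAA7* held 8.86% ± 1.5 (SD, *n* = 5) of the summed *Aux/IAA* level in Col-0 SAMs and 0.177% ± 0.0631 in Col-0 IMs.

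*IAA14* (SOLITARY-ROOT, AT4G14550), which blocks lateral root initiation when stabilised, was at 11.7, 16.3, 11, 13.2 and 10 TPM in Col-0 SAM and at 0.857 to 2.48 TPM in the 5 Col-0 IM libraries. In *plt3 plt7* it was at 10.6, 10.3, 11.8, 16 and 11.6 TPM in SAM and at 0.392, 0.708, 1.32, 1.24 and 0.55 TPM in IM, and the log2 fold changes were -3.24 ± 0.21 (3.19e-53) and -3.87 ± 0.19 (1.34e-91). No IM library reached a SAM library. *IAA17* (AXR3, AT1G04250), of the same branch of the family, was at 11.9, 20.2, 15.2, 17.5 and 20 TPM in Col-0 SAM and at 7.39, 7.39, 6.8, 4.18 and 5.8 TPM in Col-0 IM. In *plt3 plt7*, *IAA17* was at 16.4, 17.8, 23.5, 29.7 and 18.9 TPM in SAM and at 8.43, 10.5, 7.96, 7.33 and 7.9 TPM in IM, with log2 fold changes of -1.70 ± 0.16 (2.87e-24) and -1.68 ± 0.15 (6.10e-28). The fourth gene of that branch, *IAA16*, kept a higher level: it fell, with log2 fold changes of -0.89 in Col-0 and -1.05 in *plt3 plt7*, from 71.1 ± 9.67 to 48 ± 2.69 TPM in Col-0, just short of the 2-fold limit in Col-0.

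*IAA1* and *IAA2* are classical early auxin-induced genes, and the promoter of *IAA2* is in use as an auxin response reporter. *IAA1* (AT4G14560) was at 16.5, 19.1, 12.1, 12.9 and 16.2 TPM in Col-0 SAM and at 4.13, 2.99, 3.4, 2.68 and 3.14 TPM in Col-0 IM. In *plt3 plt7* it was at 11.7, 12.6, 13.2, 16.9 and 17.9 TPM in SAM and at 4.36, 3.28, 2.25, 2.34 and 2.19 TPM in IM, with log2 fold changes of -2.47 ± 0.19 (6.54e-39) and -2.68 ± 0.21 (6.01e-37). *IAA2* (AT3G23030) was at 35.8, 43.6, 31.5, 36.4 and 36.5 TPM in Col-0 SAM and at 5.05, 8.04, 7.11, 12.2 and 7.61 TPM in Col-0 IM. All 5 IM libraries were below all SAM libraries, with a log2 fold change of -2.49 ± 0.17 (3.30e-47). In *plt3 plt7*, *IAA2* was at 30.2, 29.7, 37.4, 38.7 and 38.9 TPM in SAM and at 4.84, 2.94, 4.61, 5.82 and 4.45 TPM in IM, with -3.28 ± 0.14 (3.76e-127). *IAA3* (SHY2, AT1G04240) was at 14.7, 21.3, 17.1, 20.1 and 16.7 TPM in Col-0 SAM and at 5.13, 5.28, 6.03, 6.03 and 7.11 TPM in Col-0 IM, and at 13.3, 16.9, 17.8, 21.2 and 18.2 against 7.89, 5.26, 4.38, 5.72 and 5.4 TPM in *plt3 plt7*. Its log2 fold changes were -1.89 ± 0.11 (8.97e-70) and -1.94 ± 0.16 (5.21e-34), but 37.28% of its 31-base words are shared with a gene on the opposite strand, and its counts are uncertain to that extent. *IAA4* (AT5G43700), its close relative, was at 58.9, 74.8, 70.4, 77.1 and 71.7 TPM in Col-0 SAM and at 33.7, 32.3, 39.6, 37 and 41.7 TPM in Col-0 IM, and at 56.8, 64.7, 75.4, 76.3 and 73.2 against 31.2, 35.3, 29.1, 32.3 and 27.8 TPM in *plt3 plt7*, with log2 fold changes of -1.24 ± 0.07 (5.05e-75) and -1.51 ± 0.09 (4.91e-60). Of these genes, *IAA4* kept the highest level in IMs.

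**Figure D2:**
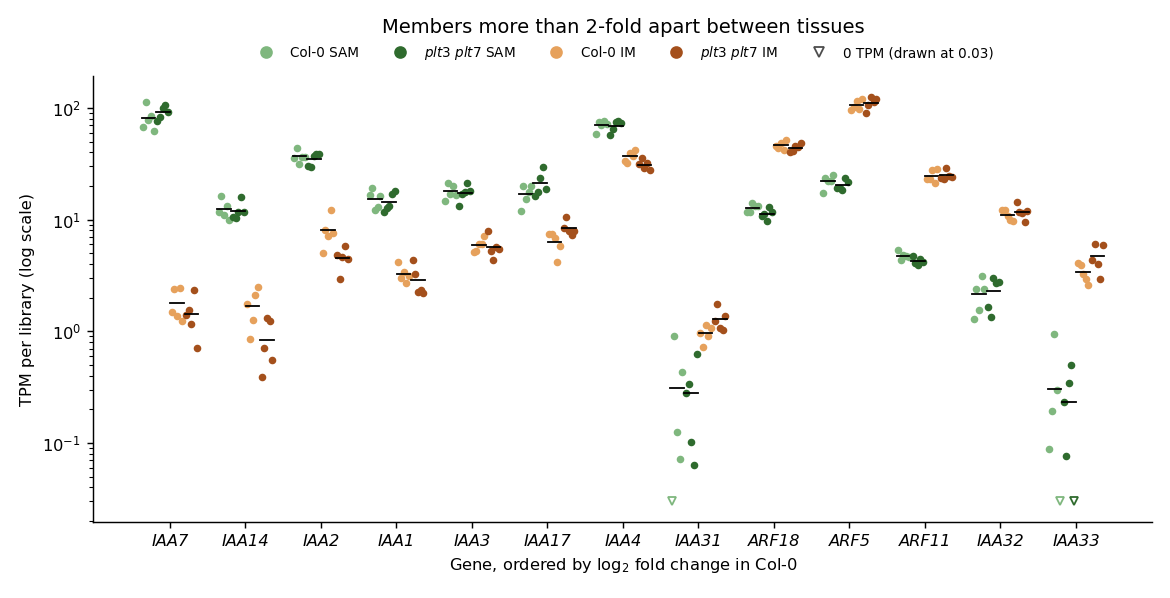
Level (TPM, log scale) in each library of the 13 members called in both genotypes with more than a 2-fold difference between tissues; colours are the 4 groups, black lines group means, and triangles at 0.03 stand for 0 TPM. From *IAA7* to *IAA4*, SAM points lie above all IM points of the same genotype, and from *IAA31* to *IAA33* below them, except that the *IAA31* points of Col-0 overlap between 0.725 and 0.915 TPM.

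Of these 7 genes, 6 lie in pairs. *IAA2* and *IAA7* on chromosome 3, *IAA3* and *IAA17* on chromosome 1, and *IAA14* and *IAA1* on chromosome 4 are transcribed away from each other with 12510, 6388 and 10732 bases between the annotated genes (TAIR10.1), and each gap holds 1 other annotated gene. They are the 3 pairs of *Aux/IAA* genes within 20000 bases of each other in the genome, a feature looked at after the values were seen. Both members of each pair fell in both genotypes, although by different amounts: *IAA7* fell by 5.94 on the log2 scale in Col-0 where its neighbour *IAA2* fell by 2.49.

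The *Aux/IAA* genes that rose more than 2-fold in both genotypes were *IAA31*, *IAA32* and *IAA33*, which lack the degron core. Of these, *IAA31* and *IAA33* could be tested only because they were high in IMs. *IAA33* (AT5G57420) was at 0.088, 0.193, 0.941, 0.299 and 0 TPM in Col-0 SAM and at 4.1, 3.96, 3.27, 2.91 and 2.58 TPM in Col-0 IM. In *plt3 plt7* it was at 0.231, 0.0768, 0.343, 0.502 and 0 TPM in SAM and at 4.38, 6.02, 4.03, 2.96 and 5.98 TPM in IM. Its log2 fold changes were 3.25 ± 0.56 (1.62e-08) and 4.09 ± 0.49 (1.97e-16), on 0 to 11 counts in each SAM library, and without replicate 3 of the Col-0 SAM group the first was 4.36. Without any 1 of the *plt3 plt7* IM libraries, *IAA33* had too few libraries with 10 counts to be tested in that genotype. *IAA32* (AT2G01200) was at 1.3, 2.38, 1.55, 3.12 and 2.37 TPM in Col-0 SAM and at 12.2, 12.1, 10.8, 9.97 and 9.67 TPM in Col-0 IM. In *plt3 plt7* it was at 1.64, 1.34, 3.03, 2.73 and 2.78 TPM in SAM and at 14.4, 11.6, 11.4, 9.53 and 12 TPM in IM, and its log2 fold changes were 2.20 ± 0.19 (5.91e-29) and 1.97 ± 0.22 (8.18e-19). The tissues did not overlap, but 42.64% of the 31-base words of *IAA32* are shared with a gene on the opposite strand. *IAA31* (AT3G17600) was at 0, 0.915, 0.125, 0.0719 and 0.433 TPM in Col-0 SAM and at 0.96, 0.725, 1.14, 0.899 and 1.06 TPM in Col-0 IM, and at 0.282, 0.34, 0.101, 0.0632 and 0.628 against 1.23, 1.75, 1.08, 1.03 and 1.37 TPM in *plt3 plt7*. Its log2 fold changes were 1.45 ± 0.68 (0.0487) and 1.77 ± 0.50 (8.50e-04). The Col-0 call was lost without replicate 3 (adjusted *P* = 0.111) or 4 (0.105) of the Col-0 SAM group or replicate 3 of the Col-0 IM group (0.111), and the value was 2.40 without replicate 2 of the Col-0 SAM group.

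Outside these 10 genes, which were picked by their values in these data, genes with the core were called in both directions. Only 2 tested genes without the core remained, *IAA20* and *IAA30*, too few to compare the core with direction there. Of the 13 other genes with the core tested in Col-0, 4 were called higher (*IAA9*, *IAA11*, *IAA12* and *IAA27*) and 4 lower (*IAA13*, *IAA16*, *IAA19* and *IAA29*), with a median log2 fold change of 0.21. In *plt3 plt7*, 4 of 12 were higher and 5 lower, with a median of 0.10. Without *IAA29*, which reached 10 counts in SAM libraries only, the Col-0 counts were 4 higher and 3 lower. With libraries scaled by total counts, 7 of the 13 were higher and 2 lower in Col-0, and 6 higher and 2 lower in *plt3 plt7*. The filter on low counts bears on the genes without the core: *IAA31* and *IAA33* reached 10 counts in all 5 IM libraries but in 0 or 1 SAM libraries of each genotype, so that they were tested only because they were high in IMs, whereas low genes with the core such as *IAA5*, *IAA6* and *IAA15* were not tested. Their calls are therefore given gene by gene and not as a count. The genes without the core were low: *IAA30*, at 14 ± 1.44 TPM (mean ± SD, *n* = 5), and *IAA32* had the highest levels of them in Col-0 IMs, and *IAA20* and *IAA31* were at or under 2.40 TPM in every library. *IAA30* rose by 0.88 and 0.50, and *IAA20* was at 0.58 (adjusted *P* = 0.115) and 0.73 (0.0874), a call that was lost without any 1 of the 5 *plt3 plt7* SAM libraries or replicate 1, 2 or 3 of *plt3 plt7* IM (adjusted *P* = 0.103 to 0.211) and gained in Col-0 without replicate 5 of either tissue (0.0407 and 0.0835).

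**Figure D3:**
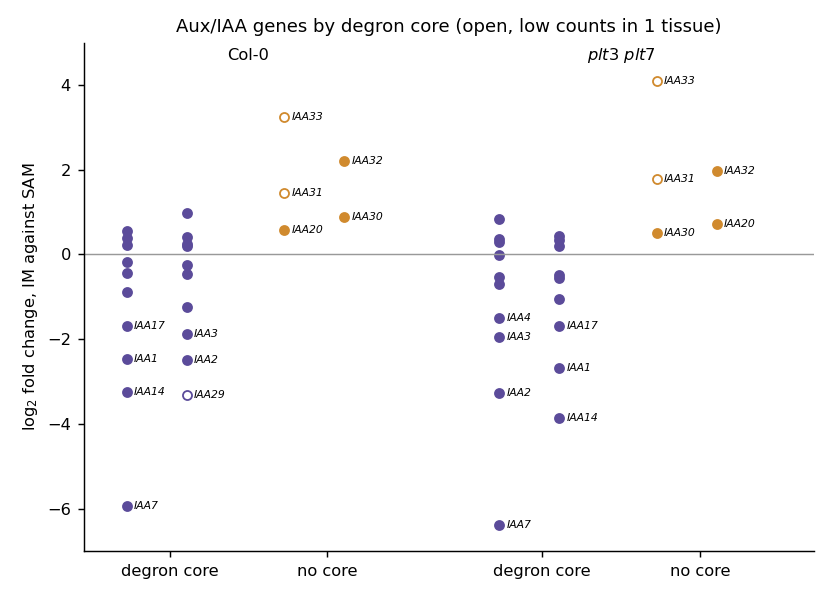
Log2 fold change of IM against SAM of each tested *Aux/IAA* gene, with (purple) and without (orange) the degron core in its coding sequence, in Col-0 and *plt3 plt7*; open points are genes that reached 10 counts in fewer than 2 libraries of 1 tissue. Genes with the core spread over both directions, from -5.94 to 0.97 in Col-0, and 2 of the 5 points without it are open in each genotype.

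Of the 3 most abundant *Aux/IAA* genes, *IAA8* was not called, *IAA9* was called higher and *IAA16*, given above, lower in both genotypes. *IAA8* (AT2G22670) was at 240 ± 12.7 TPM in Col-0 SAMs and 353 ± 17.6 TPM in Col-0 IMs, and *IAA9* at 176 ± 17.3 and 288 ± 18.9 TPM. *IAA8* held 26.5% ± 1.76 (SD, *n* = 5) of the summed *Aux/IAA* level in Col-0 SAMs and 34.6% ± 0.61 in Col-0 IMs, and *IAA9* 19.3% ± 0.819 and 28.3% ± 0.862. TPM ratios are offset from the fits: the median gene's IM to SAM ratio in TPM was 0.31 (log2) above the fitted value in Col-0 and 0.35 above in *plt3 plt7*. Relative to the median gene, as in the fits, *IAA8* was at 0.24 and 0.20, under the minimum change, while *IAA9* rose by 0.39 and 0.44. With libraries scaled by total counts, *IAA8* was called higher in both genotypes. *IAA27*, a relative of both, rose by 0.97 and 0.84. *IAA12* (BODENLOS, AT1G04550), the known partner of ARF5 in the embryo, rose by 0.55 and 0.37, and *IAA13*, its relative, fell (-0.44 and -0.69), with 34.28% of its words shared with a gene on the opposite strand. *IAA19* (MSG2), which acts in tropic growth, fell (-0.46 and -0.55) with overlapping tissues, and its calls, unlike that of *IAA13* in *plt3 plt7*, were lost in both genotypes when libraries were scaled by total counts. *IAA11* was called in Col-0 only and *IAA18*, *IAA26* and *IAA28* in *plt3 plt7* only, all with log2 fold changes between -0.54 and 0.42, and *IAA10* was called in neither. Of these calls, that of *IAA18* was lost without replicate 3, 4 or 5 of *plt3 plt7* SAM or 4 or 5 of *plt3 plt7* IM, and so was that of *IAA12* in *plt3 plt7* without replicate 1 of SAM or 2 of IM, each at 0.30 to 0.32, while *IAA11* was called in *plt3 plt7* without replicate 3 (0.34) or 5 (0.35) of IM. With libraries scaled by total counts, *IAA11* and *IAA18* were called in both genotypes, *IAA10* in Col-0, and *IAA26* and *IAA28* in neither.

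Another 5 *Aux/IAA* genes were hardly detected. *IAA6* had 75 counts over the 10 SAM libraries and 0 in all 10 IM libraries, and was at least 36.8-fold higher in SAMs, in CPM, if 3 counts over all IM libraries are taken as the floor. *IAA29*, a gene induced in shade, was at 0.388 to 1.7 TPM in Col-0 SAM and 0.0561 to 0.216 TPM in Col-0 IM libraries and fell in Col-0 (log2 fold change -3.32), the genotype in which it could be tested. It reached 10 counts in all 5 Col-0 SAM libraries and in 0 of the Col-0 IM libraries, and could not be tested without any 1 of those SAM libraries. *IAA5*, *IAA15* and *IAA34* were at or under 1.04 TPM in every library and were not tested.

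**Figure D4:**
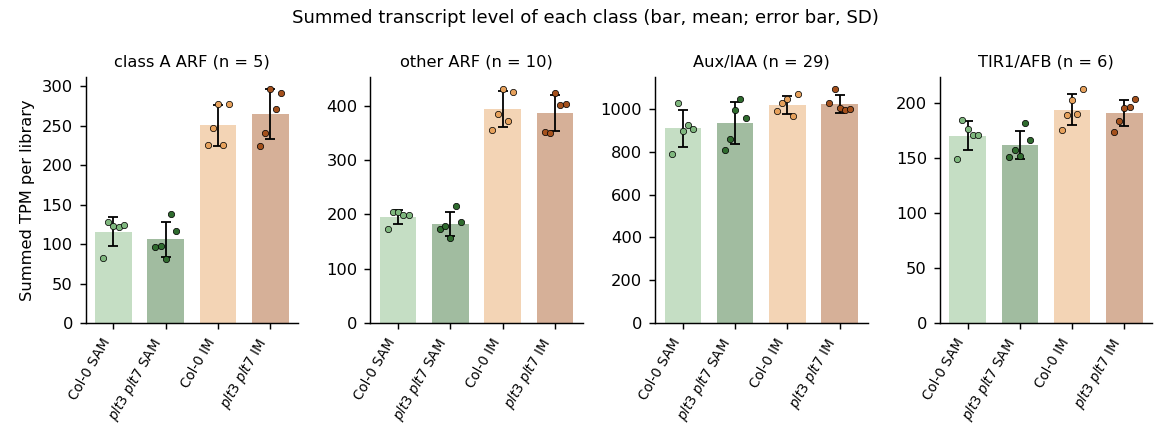
Summed level (TPM) of each class in each library; bars are means and error bars SD of 5 libraries. The class A *ARF* sum was 116 TPM in Col-0 SAMs and 251 TPM in Col-0 IMs, the *Aux/IAA* sum 909 and 1020 TPM and the *TIR1/AFB* sum 170 and 194 TPM; on size-factor normalised counts per kilobase the sums of these last classes were lower, not higher, in IMs.

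The summed levels of the classes were compared as well. The summed level of the class A ARFs was 116 ± 18.6 TPM in Col-0 SAMs and 251 ± 26.1 TPM in Col-0 IMs (mean ± SD, *n* = 5), and 106 ± 22.2 and 265 ± 31.7 TPM in *plt3 plt7*. The other ARFs went from 196 ± 13.1 to 394 ± 33.2 TPM in Col-0 and from 182 ± 21.7 to 386 ± 33.2 TPM in *plt3 plt7*. SAM and IM libraries did not overlap in either *ARF* class. The *Aux/IAA* sum was 909 ± 85.5 TPM in SAMs and 1020 ± 41.4 TPM in IMs of Col-0, which overlapped, with an IM to SAM ratio of 1.12 against 2.17 for class A and 2.01 for the other ARFs. On size-factor normalised counts per kilobase the *ARF* sums were still higher in IMs, while the *Aux/IAA* and *TIR1/AFB* sums were lower.

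The receptors differed little between tissues. *TIR1* (AT3G62980) was at 41.9, 44.8, 45.2, 39.8 and 40.3 TPM in Col-0 SAM and at 40.9, 45.2, 49.4, 46.8 and 50.1 TPM in Col-0 IM, and *AFB1*, the receptor known for fast, non-transcriptional root responses, at 37.8 ± 7.26 and 41 ± 3.73 TPM. *AFB2* and *AFB3* were at -0.05 and 0.19 (log2) in Col-0. With libraries scaled by total counts, *AFB3* was called higher in IMs in both genotypes. *AFB5*, which together with AFB4 is the receptor of picloram-type auxins, was called lower in Col-0 (-0.36 ± 0.06, adjusted *P* = 3.93e-08) and was at -0.28 ± 0.07 in *plt3 plt7*, under the minimum change. The Col-0 call was lost with libraries scaled by total counts and, at -0.32, without replicate 1 of Col-0 IM, and *AFB5* was called in *plt3 plt7*, also at -0.32, without replicate 5 of *plt3 plt7* SAM. The log2 fold changes of all 6 lay between -0.36 and 0.19, and the sign of *TIR1*, *AFB1*, *AFB2* and *AFB4* turned in both genotypes when libraries were scaled by total counts, so no direction is given for the class. The 4 receptors with a miR393 site lay between -0.22 and 0.19 in Col-0 and the 2 without it at -0.36 and -0.03.

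Of 28 related genes outside the set tested in Col-0, 10 (35.7%) were higher and 5 (17.9%) lower in IMs, against 26.7% and 30.5% of all genes. In *plt3 plt7*, 13 of 29 (44.8%) were higher and 5 (17.2%) lower, against 26.4% and 31.3%. Among them, 3 of 5 corepressors were called higher in Col-0 and 4 of 5 in *plt3 plt7*, with *TPR3* at 1.05 and 1.18. *TPL* itself was at 0.06 and 0.16, not called. Of 9 genes of the SCF complex and its regulation, 0 were called in Col-0 and 1 in *plt3 plt7* (*CAND1*, 0.38). The *GH3* enzymes, which conjugate auxin to amino acids and several of which are induced by it, split: *GH3.6* fell from 80.4 ± 20.3 to 15.8 ± 1.66 TPM in Col-0 (-2.67 and -2.86), *GH3.17* fell (-2.94 and -3.24), *GH3.5* fell (-1.03 and -1.68) and *GH3.2* rose (0.96 and 0.85). *GH3.3* rose in Col-0 (0.45) and was not called in *plt3 plt7* (0.32). *GH3.1* was called higher in *plt3 plt7* IMs (1.99) and could not be tested in Col-0. It was hardly detected in *plt3 plt7*, at 0.0181 to 0.0791 TPM in SAM and 0.145 to 0.346 TPM in IM libraries, so its call rests on few reads. Of 9 known targets of ARF5, 8 could be tested, and 5 were higher and 2 lower in Col-0. *LFY*, also among the floral markers, was at 5.16 and 5.81, *FIL* at 1.42 and 1.63, *TMO5* at 1.59 and 1.32 and *DRN* at -1.98 and -2.46. Of the LBD targets of ARF7 and ARF19, only *LBD18* had enough counts, and it was not called.

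The second question was whether loss of *PLT3* and *PLT7* alters these genes within a tissue. In SAMs, 0 of 44 tested members were called, against 0.292% of 19185 genes called higher and 0.162% called lower. By edgeR the count was also 0, and 3 members had an unadjusted *P* under 0.05 in DESeq2 (*ARF18*, -0.20, *IAA17*, 0.34, and *IAA28*, 0.43). Such a *P* was reached by 1336 of all 19185 genes. The median log2 fold change over the members was -0.01, as over all genes. *ARF5*, for example, was at -0.14 ± 0.09 and *IAA7* at 0.24 ± 0.12. None of the related genes was called in SAMs either.

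In IMs, 1 of 45 tested members (2.22%) was called, and it was lower in *plt3 plt7*, against 1.07% of 19432 genes called lower and 0.458% called higher. That member was *IAA2* (chr3:8180646-8182095, minus strand). Its normalised counts were 151, 227, 197, 340 and 205 in Col-0 IMs and 142, 83.3, 131, 158 and 118 in *plt3 plt7* IMs. The groups overlapped by the lowest Col-0 and the highest *plt3 plt7* library, with means of 224 ± 70.5 and 127 ± 28.3 (SD, *n* = 5) and a log2 fold change of -0.81 ± 0.20 (adjusted *P* = 0.00769). *IAA2* was lower in *plt3 plt7* within each of the 3 IM harvest groups, with log2 differences of -0.75 and -0.90 (2 libraries of each genotype) and -0.80 (1 of each). With edgeR the log2 fold change was -0.81 with an adjusted *P* of 0.144, which does not pass the threshold. In SAMs the gene was at 0.03 ± 0.11, with normalised counts of 682 to 905 in Col-0 and 677 to 884 in *plt3 plt7*.

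The members nearest to a call in IMs were *IAA17* (0.40 ± 0.14, adjusted *P* = 0.112), *AFB4* (-0.18 ± 0.07, 0.15) and *IAA4* (-0.25 ± 0.09, 0.172). *IAA17* was at 7.39, 7.39, 6.8, 4.18 and 5.8 TPM in Col-0 and at 8.43, 10.5, 7.96, 7.33 and 7.9 TPM in *plt3 plt7* IMs, and it was called without replicate 3 of the Col-0 IM group (0.51, adjusted *P* = 0.0218). No *ARF* gene was called, and their log2 fold changes lay between -0.12 and 0.12, with *ARF5* at 0.04 ± 0.06. Over all 45 members the median was -0.04 and 6 had an unadjusted *P* under 0.05 in DESeq2, against 1990 of all 19432 genes.

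Of 29 related genes tested, 3 (10.3%) were called lower in *plt3 plt7* IMs and 0 higher, against 1.07% and 0.458% of all 19432 genes. *TMO5*, a target of ARF5 known for its role in vascular cell division, had normalised counts of 2119, 1832, 1971, 1532 and 2070 in Col-0 and 1432, 1448, 1258, 1098 and 1233 in *plt3 plt7*. The groups did not overlap, and the log2 fold change was -0.56 ± 0.09 (adjusted *P* = 4.49e-08). *GH3.5* (-0.78 ± 0.23, adjusted *P* = 0.0417) and *GH3.17* (-0.46 ± 0.14, 0.0538), the latter an enzyme that conjugates auxin to glutamate, were lower within each harvest group but overlapped between genotypes. Their calls were lost with edgeR (adjusted *P* = 0.111 and 0.184), while that of *TMO5* was kept (0.0132). The call of *GH3.5* was also lost without replicate 2 or 5 of Col-0 or 1, 2 or 5 of *plt3 plt7* (DESeq2 adjusted *P* = 0.108 to 0.199), and that of *GH3.17* without replicate 1, 2, 4 or 5 of Col-0 or 1, 3, 4 or 5 of *plt3 plt7* (0.115 to 0.318). None of the floral, photosynthetic, vascular or root markers was called between genotypes in either tissue.

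**Figure D5:**
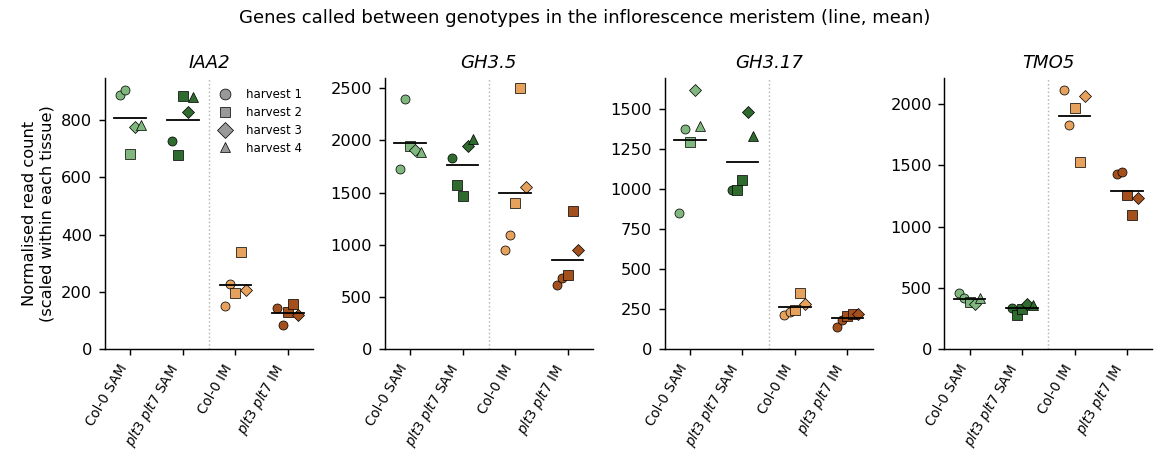
Normalised read counts, scaled within each tissue, of the 4 genes of the set and its relatives called between genotypes in IMs; symbols are harvest groups, numbered separately in each tissue, and lines are means of 5 libraries. *TMO5* is the gene without overlap in IMs, from 1098 to 1448 in *plt3 plt7* and from 1532 to 2119 in Col-0, while *IAA2* overlaps between 151 and 158.

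Whether the effect of genotype differs between the tissues was tested as an interaction over all 20 libraries. Of 46 members, 1 was called, again *IAA2*, whose effect in IMs minus that in SAMs was -0.84 ± 0.23 (log2, adjusted *P* = 0.0732), against 0.246% of 20348 genes called lower and 0.108% called higher. The call was lost with edgeR (adjusted *P* = 0.391) and without any 1 of 12 of the 20 libraries, which were replicates 3, 4 and 5 of both SAM groups, 2, 4 and 5 of Col-0 IM and 2, 3 and 5 of *plt3 plt7* IM (log2 -0.85 to -0.68, DESeq2 adjusted *P* = 0.123 to 0.345). *IAA14* (-0.76, adjusted *P* = 0.426) and *IAA7* (-0.51, 0.571) had the same sign and were not called.

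Transcript choice within genes differed little between tissues. Of the 27 members with several transcripts and a mean level of at least 1 TPM, the transcript whose share differed most was one of *IAA7*, with a difference of 14.7 percentage points, and none of the 71 transcripts differed by more than 20. Shared sequence limits a few other values: 23.94% of the 31-base words of *IAA10* and 15.55% of those of *AFB4* are shared with genes on the opposite strand, 9.66% of those of *IAA34* with a neighbour that overlaps it on the same strand, and sharing between relatives within the set was 2.63% or less.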

How the data were processed

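Total RNA of 20 pools of dissected apices was sequenced as strand-specific libraries. Per the labels and the study's methods, the authors trimmed reads with fastp 0.23.4 and pseudoaligned them to the TAIR10.1 cDNA set with kallisto 0.46.1; the strand setting is not given in the sources used here. The deposited tables hold estimated counts and TPM for 48266 transcripts per library, and both were summed to genes. Estimated counts were rounded and tested with DESeq2 1.42.0 (Wald test, R 4.3.3) on genes that reached 10 counts in 5 or more libraries of a fit, with harvest group as a covariate between genotypes, and 10 libraries in each fit but the interaction. edgeR 4.0.16 was an alternative, and the fits were tested on simulated data. TPM values are described, not tested. Given in full were members called between genotypes or in the interaction, those called in both genotypes with more than a 2-fold change between tissues, the 3 most abundant of each class and those nearest to a call in IMs. Other members and related genes such as *CAND1* and *GH3.2* were named after their values were seen. Members, lists and tests were chosen with earlier results of these data known. *P* values cover the spread between pools. Alternatives covered scaling, filter, threshold, tool, covariate and left-out libraries.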

Additional observations from a re-analysis of the deposited data

Results flagged for a closer look

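Among the 3 most abundant genes of each class and the genes with more than a 2-fold tissue difference (24 members, 96 groups of 5 libraries), 8 groups held 1 library far from the others (Dixon's ratio above 0.71), where chance flags about 1 in 20 groups. Replicate 1 of the Col-0 SAM group was the lowest in 4 of them: *ARF6* was at 35 TPM there, *ARF8* at 16.9 TPM, *IAA9* at 146 TPM and *AFB1* at 25.2 TPM. Flags in the same library are not independent of each other. That library also had the highest summed level of the 5 photosynthesis genes, 27586 TPM, and its part in these 4 values was not tested. Replicate 4 of the *plt3 plt7* SAM group was the highest for *IAA14* (16 TPM) and *AFB5* (40.2 TPM). Replicate 3 of *plt3 plt7* SAM was the lowest for *TIR1* (34.6 TPM), and replicate 3 of *plt3 plt7* IM the highest for *ARF11* (29.2 TPM).

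The genotype effect on *IAA2* in IMs minus that in SAMs was -0.84 on the log2 scale, by the interaction term of DESeq2 (adjusted *P* = 0.0732), and edgeR gave 0.391.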

How the results depend on the processing

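The log2 fold changes of the 13 members more than 2-fold apart between tissues, and of the genes called between genotypes and *IAA17*, kept their direction under every alternative run, and 509 of 548 of these values kept their side of the threshold. Most of these are tissue values of the 13 members, of which 434 of 437 kept their side. Most changes of side thus fell among the genotype and interaction values. Total-count scaling, added after seeing the data, moved the median gene to 0.24 and 0.26 and turned the sign of *ARF10*, *IAA28*, *TIR1*, *AFB1*, *AFB2* and *AFB4* in Col-0 and of *ARF7*, *IAA10*, *TIR1*, *AFB1*, *AFB2* and *AFB4* in *plt3 plt7*, none of them called. A length offset also turned *ARF10* in Col-0, and TMM factors and edgeR *IAA10* in *plt3 plt7*. With more than 2-fold required, 14 members were called between tissues in each genotype, 0 between genotypes in IMs and 0 in the interaction. With 1 library left out, 29 to 32 members were called between tissues in Col-0, 30 to 32 in *plt3 plt7*, 0 between genotypes in SAMs, 1 to 2 in IMs and 0 to 2 in the interaction. edgeR called 0 members in IMs and 0 in the interaction. The interaction count was also 0 at an adjusted *P* of 0.05, without the filter on low counts, with a length offset and without harvest group. Same-numbered deviations between genotypes correlated at -0.14 to 0.30 in SAMs (3 of 5 pairs over 0.1) and at -0.02 to 0.64 in IMs (4 of 5), so that not every pair passed and the numbers were not taken to pair the samples. With the replicate number as a block, 2 members were called in IMs (*IAA2* and *IAA17*), 31 and 32 between tissues, 0 in SAMs and 1 in the interaction. On size-factor normalised counts per kilobase, the log2 IM to SAM ratios of the class sums in Col-0 and *plt3 plt7* were 0.75 and 0.96 for class A ARFs (1.12 and 1.32 in TPM), 0.66 and 0.72 for the other ARFs (1.01 and 1.08), -0.15 and -0.22 for Aux/IAAs (0.17 and 0.13) and -0.15 and -0.12 for TIR1/AFBs (0.19 and 0.24). With 1 library left out, the TPM ratios ranged from 1.02 to 1.16 and 1.24 to 1.44 for class A, 0.97 to 1.04 and 1.03 to 1.15 for the other ARFs, 0.12 to 0.21 and 0.08 to 0.18 for Aux/IAAs and 0.14 to 0.22 and 0.21 to 0.28 for TIR1/AFBs. Over all genes, edgeR called 5 against 87 genes in SAMs, 146 against 297 in IMs and 11 against 72 in the interaction, and the block 149 in SAMs and 143 in the interaction. The cause of these differences was not tested. Depth limited the members with few counts, such as *IAA31* and *IAA33*.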
